A study of Homo sapiens with 6 samples.

Results

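The kinesin motor family was examined in RNA-seq of 786-O cells, a long-established line grown from a clear cell renal carcinoma, which lacks functional VHL. Kinesins were taken as every row of the deposited count table whose gene symbol is KIF followed by a number and at most 1 letter from A to C, which gave 39 of 56303 genes. 786-O cells given an siRNA against NFE2L3, with 3 libraries labelled 48 h, were compared with 786-O cells given a control siRNA, with 3 libraries labelled 0 h and a WT genotype. The sources used here do not say which NFE2L3 siRNA was used. All 6 libraries come from 1 cell line, and the effect of the siRNA and that of the labelled time cannot be told apart. The genotype label of knockdown replicates 2 and 3 reads NFE2L4 and NFE2L5, while their titles and source names give NFE2L3. The study's statistics section speaks of independent trials for its data as a whole but does not mention these libraries, and no label gives separate cultures, so p-values measure only how far these libraries vary, which may be technical variation.

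Kinesins are ATP-driven motors that move along microtubules or take them apart. Mitotic kinesins build and shorten the spindle, move chromosomes and finish cytokinesis, and many of them are transcribed mainly in G2 and M phase, whereas transport kinesins carry vesicles, mitochondria and ciliary cargo through most of the cell cycle. NFE2L3 is a basic leucine zipper transcription factor of the CNC family, whose members bind antioxidant response elements as dimers with small MAF proteins. The 39 genes were sorted by textbook role into 14 mitotic kinesins, 13 transport kinesins and 12 other kinesins, which act in cilia, at centrioles or on microtubule growth, or whose role is less settled.

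The total count was 55586867, 56806368 and 51828446 in the knockdown libraries and 53051297, 57391929 and 55338187 in the control libraries. The targeted gene NFE2L3 had 1087, 1075 and 1068 counts in the knockdown libraries and 6171, 6508 and 6403 counts in the control libraries. The log2 fold change was -2.54 (SE 0.0482, edgeR adjusted p = 3.98e-22). Of the markers of renal carcinoma and epithelium, PAX8, KRT8, VIM and EPAS1 were the most abundant, with PAX8 at 216.9 and 240.5 CPM (counts scaled to library size) in knockdown and control cells. CA9 was near 0 with 0.0615 CPM in knockdown cells and 0.0178 CPM in control cells. Of the 8 tested renal markers 5 were called, against 26.7% of all tested genes and 44.0% of those with a mean of at least 20 CPM. Those 5 had log2 fold changes of -0.32 for KRT8, -0.25 for NNMT, -0.25 for KRT18, -0.15 for PAX8 and 0.13 for EPAS1 (edgeR adjusted p of at most 0.0155). Of 12 markers of other cell types 5 could be tested and none passed the test, and the blood, endothelial and kidney tubule markers HBB, CDH5 and UMOD were at 0 in every library.

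Levels are given as RPKM, counts scaled to library size and exon length, so that kinesins of different length can be compared. KIF5B, the ubiquitous kinesin-1 heavy chain, was the most abundant kinesin in every library, with 110, 112 and 117 RPKM in the knockdown libraries and 91.7, 85.7 and 82.3 RPKM in the control libraries. KIF2C and KIF4A came next, KIF2C at 57.7, 62.6 and 61.2 RPKM in the knockdown libraries against 67.9, 64.3 and 66.7 RPKM in the control libraries. KIF4A, a chromokinesin that organises the central spindle with PRC1, had 57.4, 60.4 and 62.7 RPKM in the knockdown libraries against 63.2, 59.1 and 60.9 RPKM in the control libraries. The ranges of KIF2C and KIF4A overlapped in knockdown cells and did not in control cells. Behind them came KIF23 and KIF1C, and then KIF22 and KIF11, whose ranges overlapped in both groups. KIF20B stood number 8 by mean RPKM in knockdown cells and number 13 in control cells, while KIF3B stood number 15 in knockdown cells and number 10 in control cells. At the low end, the neuronal motor KIF1A had at most 4 counts in any library, KIF26A had 0, 0 and 0 counts in the knockdown libraries against 2, 6 and 0 in the control libraries, and KIF2B had 2, 0 and 0 counts in the knockdown libraries against 0 in every control library. KIF25 had 16, 5 and 9 counts in the knockdown libraries against 11, 4 and 6 in the control libraries, which overlapped. No fold is given for these 4 genes.

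**Figure D1:**
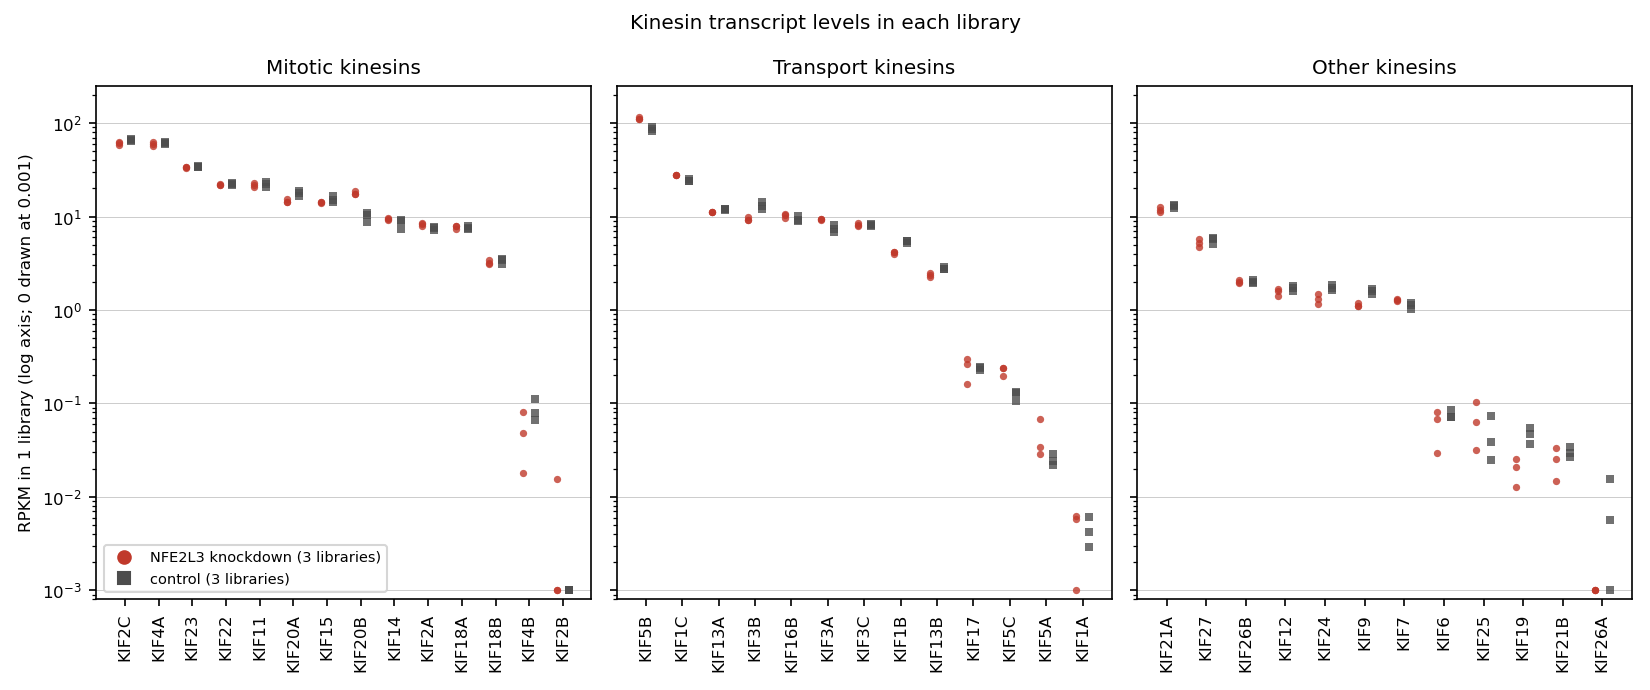
Level of the 39 kinesins in RPKM on a log axis, 1 point per library with knockdown and control libraries in separate colours, grouped into mitotic, transport and other kinesins, with 0 drawn at 0.001. KIF5B lay above all others with 110 to 117 RPKM in knockdown libraries and 82.3 to 91.7 RPKM in control libraries.

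After NFE2L3 knockdown the kinesin family moved in both directions. Of the 39 kinesins 35 had enough counts to be tested (the exceptions were KIF1A, KIF2B, KIF25 and KIF26A), and at an edgeR adjusted p under 0.05 over all 19916 tested genes 7 were higher, 7 were lower and 21 were not called. The share called was 40.0%, against 26.7% of all tested genes, of which 12.7% were higher and 14.0% lower. A mean of at least 20 CPM was reached by 23 of the 35 kinesins and by 7216 of the 19916 tested genes. Among these, 11 of 23 kinesins (47.8%) were called, against 44.0% of all such genes, so that the share of kinesins called was near the background of equally abundant genes. The median log2 fold change of the 35 kinesins was -0.04, against -0.00066 over all tested genes. With library sizes that were not scaled by TMM, the split of the calls was 5 higher and 9 lower.

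Most changes were small. The groups did not overlap for 18 of the 35 kinesins, against 39.5% of all tested genes. The cutoff of the study asks for a fold of 2 or more and an unadjusted p under 0.05. Applied to the edgeR test used here, it took 1 kinesin, KIF19, against 1.1% of all tested genes. The study's own test was not rerun and may take other genes. KIF19, a kinesin-8 that limits the length of motile cilia, had only 8, 4 and 6 counts in the knockdown libraries against 14, 12 and 17 in the control libraries. Its log2 fold change of -1.21 (SE 0.489) had an edgeR adjusted p = 0.0692, and without knockdown replicate 2 or without control replicate 3 no kinesin met the cutoff, while without knockdown replicate 1 there were 2. KIF5C lay closest below the cutoff among the called kinesins, with a fold of 1.84. At a fold of at least 1.5 the count was 3 of 35 kinesins (KIF20B, KIF5C and KIF19), against 1008 of all 19916 tested genes.

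**Figure D2:**
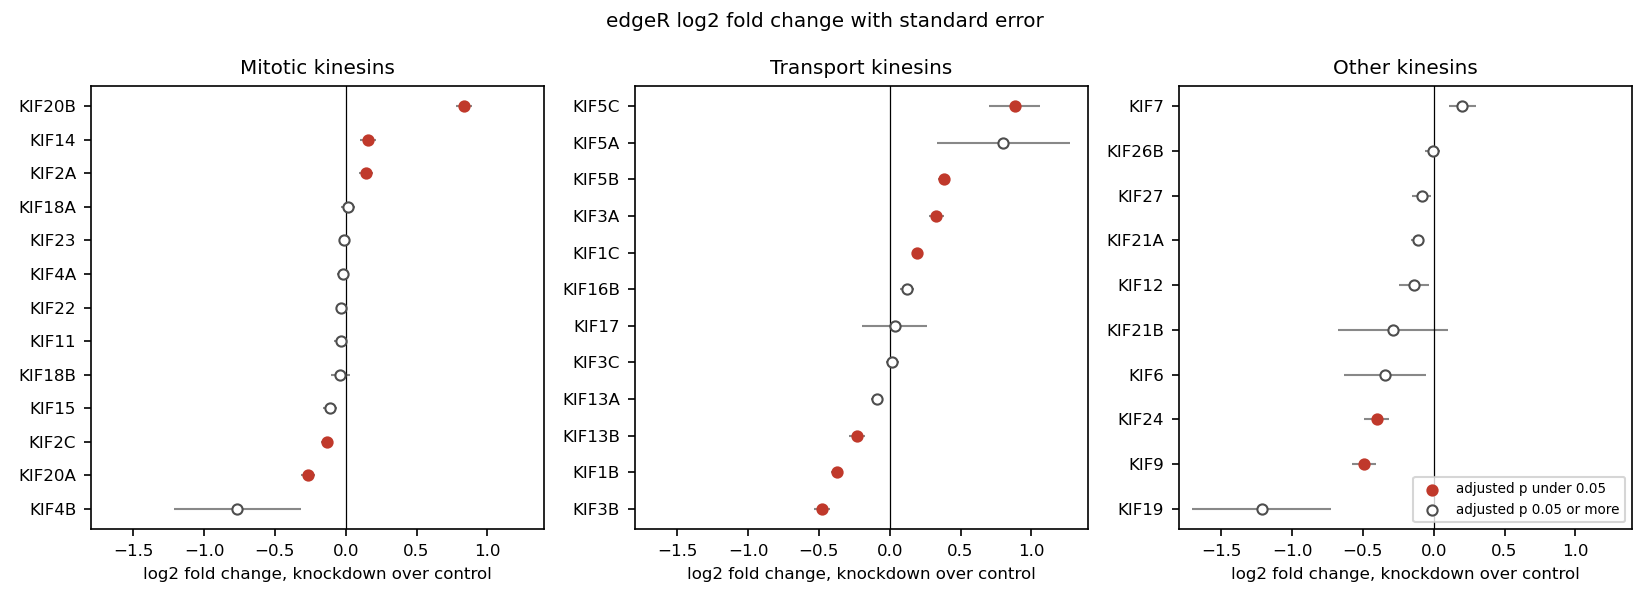
Log2 fold change of the 35 tested kinesins, knockdown over control, with its standard error as a bar, in panels of mitotic, transport and other kinesins. Filled points have an edgeR adjusted p under 0.05. KIF20B and KIF5C lie farthest to the right among filled points, at 0.84 and 0.88, and KIF9 and KIF3B farthest to the left, at -0.49 and -0.48.

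Among the mitotic kinesins 13 of 14 were tested, of which 3 rose, 2 fell and 8 were not called, with a median log2 fold change of -0.03. The share called was 38.5%, against 26.7% of all tested genes, and 45.5% against 44.0% at a mean of at least 20 CPM. The largest change within them split the kinesin-6 motors, which work at the central spindle and the midbody. KIF20B (MPP1), a motor of late cytokinesis, had 17.3, 17.3 and 18.6 RPKM in the knockdown libraries against 10.8, 10.3 and 8.67 RPKM in the control libraries. All knockdown libraries lay above all control libraries, and the log2 fold change was 0.84 (SE 0.0578, a 1.78-fold rise, edgeR adjusted p = 8.11e-11). KIF20A (MKLP2), which brings the chromosomal passenger complex to the central spindle, had 14.2, 14.5 and 15.5 RPKM in the knockdown libraries against 18.7, 16.6 and 17.7 RPKM in the control libraries. Here all knockdown libraries lay below all control libraries, with a log2 fold change of -0.26 (SE 0.0493, edgeR adjusted p = 0.000226). KIF20A exons share 132 bases (3.34%) with BRD8 and 68 bases (1.72%) with CDC23, both on the opposite strand. BRD8 and CDC23 had means of 96.2 and 51.3 CPM over the 6 libraries, against 64.1 CPM for KIF20A, so reads of these genes may be mixed. KIF23 (MKLP1), the motor subunit of centralspindlin, was not called at -0.01, with 34.3, 32.7 and 34.3 RPKM in the knockdown libraries against 33.6, 34.4 and 34.1 RPKM in the control libraries, which overlapped. The ratio of KIF20B to KIF20A in RPKM lay between 1.195 and 1.218 in the knockdown libraries and between 0.489 and 0.621 in the control libraries. That these ratios did not overlap follows from the values of each gene and adds no evidence. The reads are from whole cultures, so a change in the share of cells in a cell cycle phase and a change in RNA per cell cannot be told apart.

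The kinesin-13 depolymerases also moved in opposite directions, by smaller amounts. KIF2C (MCAK), which takes microtubules apart at centromeres and had the RPKM values given above, lay lower in every knockdown library than in any control library, with a log2 fold change of -0.13 (SE 0.0410, edgeR adjusted p = 0.0171). KIF2A, which acts at spindle poles, had 8.53, 8.00 and 8.24 RPKM in the knockdown libraries against 7.50, 7.65 and 7.27 RPKM in the control libraries. It was higher in every knockdown library, with a log2 fold change of 0.14 (SE 0.0494, edgeR adjusted p = 0.0332), and 428 bases (8.97%) of its exons are shared with IPO11 on the same strand. KIF14, a midbody motor that binds PRC1 and citron kinase, had 9.67, 9.29 and 9.52 RPKM in the knockdown libraries against 9.13, 9.02 and 7.38 RPKM in the control libraries. The groups did not overlap, though control replicates 1 and 2 lay just under the knockdown libraries, and the log2 fold change was 0.16 (SE 0.0584, edgeR adjusted p = 0.0470).

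These 3 calls lay near the threshold and were lost when some single libraries were left out, mostly with similar fold changes. The edgeR adjusted p of KIF14 was 0.141, 0.0720 and 0.126 without knockdown replicates 1, 2 and 3 and 0.393 without control replicate 3. Its log2 fold change was 0.14, 0.17 and 0.16 without knockdown replicates 1, 2 and 3, against 0.06 without control replicate 3. That of KIF2A was 0.153 and 0.0840 without knockdown replicates 1 and 3 and 0.123 without control replicate 3, at log2 fold changes of 0.12, 0.14 and 0.12. That of KIF2C was 0.129 without knockdown replicate 1, at -0.099. Without knockdown replicate 1, without knockdown replicate 3 or without control replicate 3, only KIF20B remained called higher among the mitotic kinesins, and without knockdown replicate 1 only KIF20A remained called lower.

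The other mitotic kinesins were not called. KIF11 (Eg5), which slides antiparallel microtubules apart to make the spindle bipolar, had 21.7, 20.8 and 22.7 RPKM in the knockdown libraries against 22.4, 23.5 and 20.9 RPKM in the control libraries, and its log2 fold change was -0.04 (SE 0.0470). KIF15, which helps to hold that bipolar state, had a log2 fold change of -0.11 (edgeR adjusted p = 0.0929), and without control replicate 3 the adjusted p was 0.0218. The chromokinesins KIF4A and KIF22 had log2 fold changes of -0.02 and -0.03, and the kinesin-8 motors KIF18A and KIF18B, which limit microtubule length at kinetochores and asters, had 0.02 and -0.04. KIF4B, an intronless copy of KIF4A, had 20, 12 and 4 counts in the knockdown libraries against 26, 20 and 16 in the control libraries. Its groups overlapped, and reads of KIF4A and KIF4B may be split between the copies, so its value is uncertain.

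Promoter sequences of 33 of the 39 kinesins were found in RefSeq (GRCh38.p14), from 250 bases before to 50 bases after the RefSeq start, and were searched on both strands for 3 motifs that shared no bases with each other in these promoters. The CHR element (TTTGAA) and the CCAAT box (CCAAT, bound by NF-Y) are known from promoters of genes transcribed in G2 and M phase, and TGACNNNGC is the core of the antioxidant response element. CHR letters stood in 9 of 14 mitotic (64.3%), 1 of 11 transport and 0 of 8 other kinesin promoters, against 15.4% of 27305 promoters. CCAAT letters stood in 10 of 14 mitotic (71.4%), 3 of 11 transport and 3 of 8 other kinesin promoters, against 35.7% of all promoters. The antioxidant core stood in 1 mitotic promoter (KIF23), 1 transport promoter (KIF5C) and none of the others, against 13.6% of all promoters. The RefSeq start lay more than 1000 bases from the start of the counted gene for 4 of the 33 (KIF1A, KIF5C, KIF24 and KIF25), and that of KIF5C lay 72625 bases downstream, inside the counted gene. Within the 200 bases before the start alone the CHR share was 35.7% of mitotic kinesins, against 10.5% of all promoters. Of the 9 mitotic kinesins with CHR letters 2 rose and none fell, and of the 4 tested without them 1 rose and 2 fell. A match is a description of letters, not a binding site or a cause of a change.

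The 120 bases before the start are shown for kinesins that moved apart although they share a function or a pathway, for 2 mitotic kinesins that were not called and for KIF5B, the most abundant kinesin, 5′ to 3′ on the gene's strand with motif letters of either strand in capitals.
KIF20B (chr10:89701470-89701589, plus strand): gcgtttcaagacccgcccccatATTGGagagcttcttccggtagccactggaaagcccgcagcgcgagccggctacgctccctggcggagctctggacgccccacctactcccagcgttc
KIF20A (chr5:138178992-138179111, plus strand): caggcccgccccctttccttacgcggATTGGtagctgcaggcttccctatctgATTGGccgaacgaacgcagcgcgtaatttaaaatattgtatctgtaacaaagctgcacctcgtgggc
KIF23 (chr15:69414229-69414348, plus strand): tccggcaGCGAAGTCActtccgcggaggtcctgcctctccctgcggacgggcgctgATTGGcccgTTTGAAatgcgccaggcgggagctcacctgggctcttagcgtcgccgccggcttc
KIF4A (chrX:70289984-70290103, plus strand): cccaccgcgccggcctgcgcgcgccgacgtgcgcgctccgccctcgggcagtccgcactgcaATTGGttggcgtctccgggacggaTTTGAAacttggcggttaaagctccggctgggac
KIF3A (chr5:132737547-132737666, minus strand): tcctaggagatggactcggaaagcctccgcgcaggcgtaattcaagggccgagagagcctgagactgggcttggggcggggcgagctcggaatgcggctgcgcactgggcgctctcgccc
KIF3B (chr20:32277531-32277650, plus strand): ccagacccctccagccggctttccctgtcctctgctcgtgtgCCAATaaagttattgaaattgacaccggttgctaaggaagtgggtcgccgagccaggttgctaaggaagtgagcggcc
KIF5B (chr10:32056426-32056545, minus strand): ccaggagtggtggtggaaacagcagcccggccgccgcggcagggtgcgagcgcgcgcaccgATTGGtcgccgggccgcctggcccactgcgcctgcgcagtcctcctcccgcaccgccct
KIF4A and KIF23 hold a CHR match 34 and 55 bases before the start, downstream of an inverted CCAAT box (ATTGG) that lies closer to it in KIF23 than in KIF4A. KIF20A holds inverted CCAAT boxes and no CHR letters in the window, and the CHR matches of KIF20B lie after its start, outside the printed stretch. In KIF23 the capitals near the 5′ end (GCGAAGTCA) are the antioxidant core read on the opposite strand. In the printed stretch KIF3A holds none of the 3 motifs, KIF3B holds a CCAAT box and KIF5B an inverted one, and KIF5B also holds CHR letters 140 bases before its start, outside the printed stretch.

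Among the transport kinesins 12 of 13 were tested, of which 4 rose, 3 fell and 5 were not called, with a median log2 fold change of 0.08, or 0.14 without knockdown replicate 3. The share called was 58.3%, against 26.7% of all tested genes, and 66.7% (6 of 9) against 44.0% at a mean of at least 20 CPM. The mitotic median minus the transport median was -0.11. It was -0.17 without knockdown replicate 3 and -0.06 with no filter or with at least 10 counts in every library, so its size depends on which scarce genes and libraries enter. The kinesin-1 heavy chains carry vesicles and mitochondria toward the cell periphery. KIF5B, with the values given above, was higher in every knockdown library, with a log2 fold change of 0.38 (SE 0.0423, a 1.30-fold rise, edgeR adjusted p = 1.88e-07). KIF5C, a heavy chain known mainly from neurons, was scarce, with 100, 124 and 113 counts in the knockdown libraries against 64, 56 and 66 in the control libraries. It was higher in every knockdown library, with a log2 fold change of 0.88 (SE 0.181, edgeR adjusted p = 0.000622). KIF5A, the other neuronal heavy chain, had 10, 24 and 11 counts in the knockdown libraries against 8, 8 and 10 in the control libraries, which overlapped, and was not called (log2 fold change 0.80, SE 0.471).

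The motor subunits of heterotrimeric kinesin-2 moved apart. KIF3A and KIF3B are known to pair in 1 motor with the adaptor KAP, which drives anterograde intraflagellar transport in cilia. KIF3A had 9.36, 9.50 and 9.15 RPKM in the knockdown libraries against 8.10, 7.40 and 6.79 RPKM in the control libraries. KIF3B had 9.14, 9.90 and 9.17 RPKM in the knockdown libraries against 14.3, 12.0 and 12.9 RPKM in the control libraries. Neither gene's groups overlapped, and the log2 fold change was 0.33 for KIF3A (SE 0.0525, edgeR adjusted p = 3.16e-05) and -0.48 for KIF3B (SE 0.0540, edgeR adjusted p = 2.60e-07). The KIF3A to KIF3B ratio in RPKM was 0.994 ± 0.0326 in knockdown cells and 0.569 ± 0.0451 in control cells (SD, n = 3 each). It did not overlap between the groups, which follows from the values of each gene and adds no evidence. The sum of both was 18.7 ± 0.579 RPKM in knockdown cells and 20.5 ± 1.65 RPKM in control cells. Its ranges just missed overlap, with at most 19.40 RPKM in knockdown and at least 19.43 RPKM in control libraries. KIFAP3, the gene of KAP, was not called (log2 fold change 0.04, edgeR adjusted p = 0.644). KIF3C, which can pair with KIF3A, was not called at 0.02, and KIF17, a homodimeric kinesin-2, had at most 76 counts in any library and was not called.

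**Figure D3:**
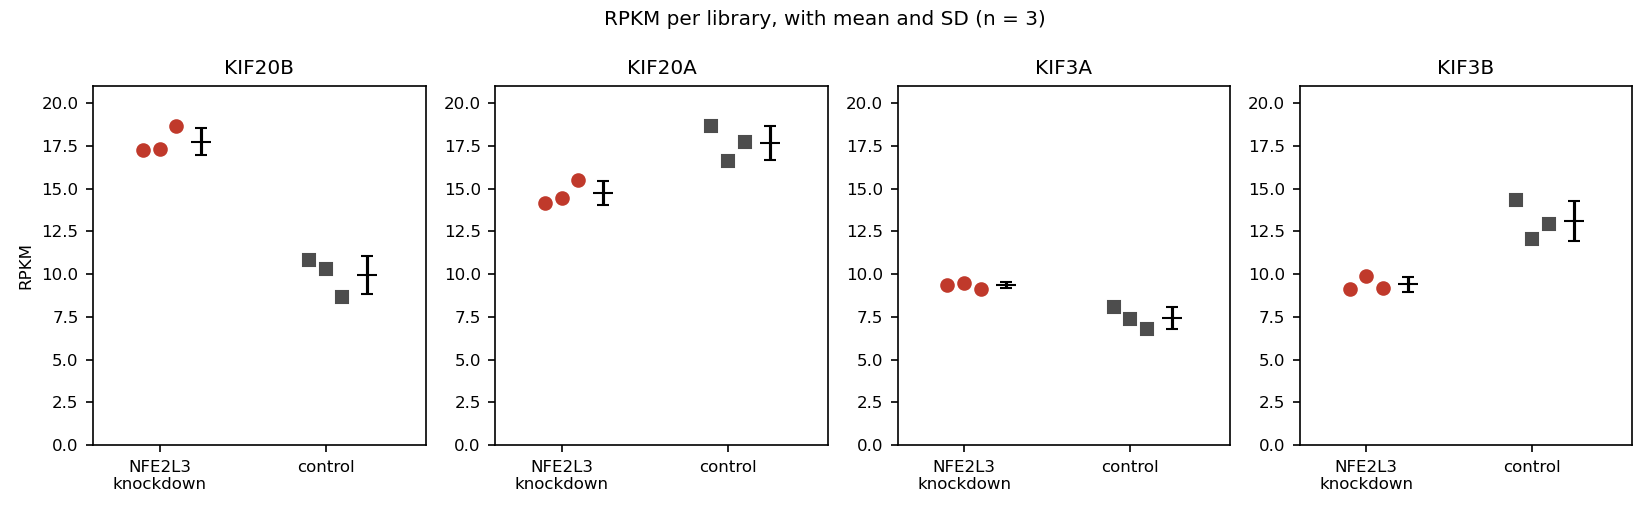
RPKM of KIF20B, KIF20A, KIF3A and KIF3B, 1 point per library with knockdown libraries left of control libraries, the mean and its SD beside them. KIF20B and KIF3A lie higher in every knockdown library, at 17.3 to 18.6 and 9.15 to 9.50 RPKM, while KIF20A and KIF3B lie lower, at 14.2 to 15.5 and 9.14 to 9.90 RPKM.

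The kinesin-3 carriers moved in both directions as well. KIF1C, a carrier of vesicles and integrins, had 28.2, 27.6 and 28.1 RPKM in the knockdown libraries against 23.8, 24.1 and 25.2 RPKM in the control libraries. It was higher in every knockdown library, with a log2 fold change of 0.19 (SE 0.0389, edgeR adjusted p = 0.000458). KIF1B, a carrier of mitochondria and vesicles, had 4.19, 4.22 and 4.01 RPKM in the knockdown libraries against 5.43, 5.47 and 5.17 RPKM in the control libraries. It was lower in every knockdown library, with a log2 fold change of -0.37 (SE 0.0430, edgeR adjusted p = 3.46e-07). KIF13B, a carrier that binds the scaffold protein DLG1, had 2.39, 2.49 and 2.23 RPKM in the knockdown libraries against 2.75, 2.72 and 2.90 RPKM in the control libraries. It also lay lower without overlap, with a log2 fold change of -0.23 (SE 0.0557, edgeR adjusted p = 0.00256). The endosome carriers KIF13A and KIF16B were not called, at -0.09 and 0.13 on the log2 scale, though the edgeR adjusted p of KIF16B was 0.0389 without knockdown replicate 1 and 0.00376 without control replicate 1.

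Summed over a class, transport kinesins had 196.1 ± 4.24 RPKM in knockdown cells and 169.4 ± 6.37 RPKM in control cells (SD, n = 3 each), without overlap. Without KIF5B the sum was 83.3 ± 0.510 RPKM in knockdown cells and 82.9 ± 2.04 RPKM in control cells, which overlapped, and KIF5B alone made up 57.5% of transport kinesin RPKM in knockdown cells and 51.1% in control cells. Mitotic kinesins summed to 273.5 ± 6.10 RPKM in knockdown cells and 276.0 ± 6.23 RPKM in control cells, which overlapped. KIF20B was the mitotic member with the largest rise, so leaving it out lowers the knockdown sum relative to control. Without it the mitotic sum was 255.8 ± 5.39 RPKM in knockdown cells and 266.1 ± 5.38 RPKM in control cells. The ranges did not overlap but lay close, at 250.6 to 261.4 and 262.8 to 272.3 RPKM. This does not show that the rest of the class fell. Of all kinesin RPKM the mitotic class held 55.3 ± 0.0501% in knockdown cells and 58.5 ± 0.347% in control cells, the transport class 39.7 ± 0.0530% in knockdown cells and 35.9 ± 0.331% in control cells, and other kinesins 4.98 ± 0.0745% in knockdown cells and 5.68 ± 0.140% in control cells. None of these shares overlapped between the groups, and as sums over the members they were given no test.

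**Figure D4:**
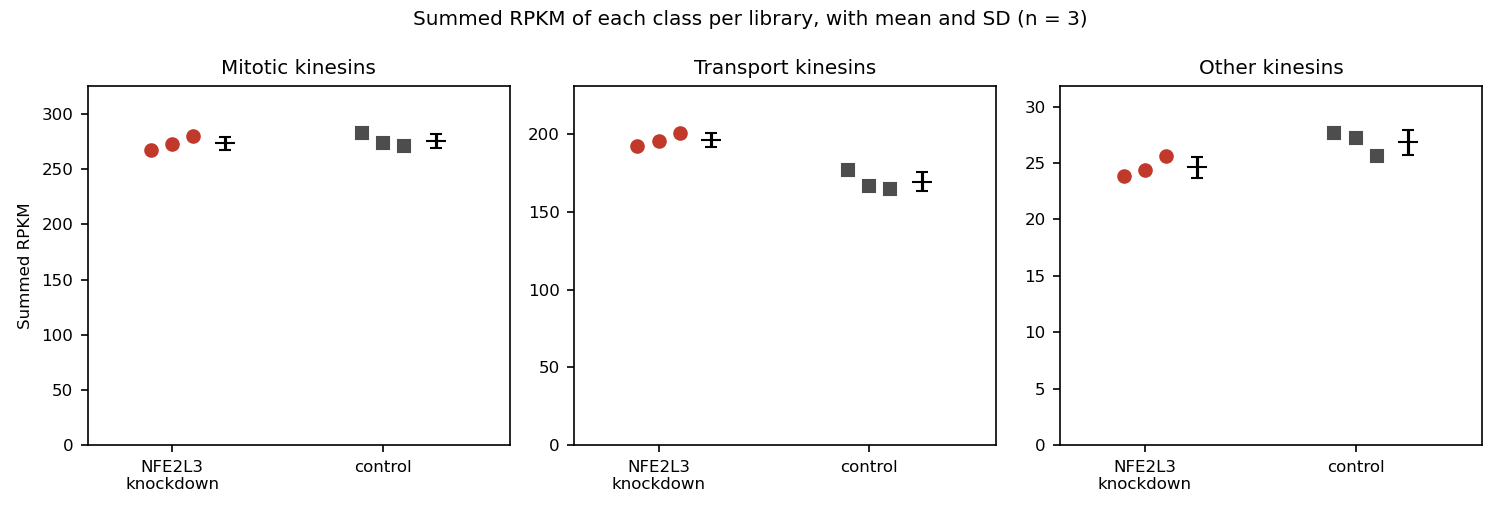
Summed RPKM of mitotic, transport and other kinesins in separate panels with axes from 0, 1 point per library with knockdown left of control, the mean and its SD beside them. The transport sum is 192.4 to 200.7 RPKM in knockdown libraries and 164.9 to 176.7 RPKM in control libraries, while the mitotic and other sums overlap between the groups.

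Of the 12 other kinesins 10 were tested, none rose, 2 fell (2 of 10 called, against 26.7% of all tested genes) and 8 were not called, with a median log2 fold change of -0.21 that rests on scarce genes. KIF9, a motor of motile cilia and sperm tails, had 386, 359 and 334 counts in the knockdown libraries against 461, 562 and 524 in the control libraries. It was lower in every knockdown library, with a log2 fold change of -0.49 (SE 0.0853, edgeR adjusted p = 9.20e-05). Its exons share 870 bases (14.9%) with KIF9-AS1 and 178 bases with KLHL18, both on the opposite strand. KLHL18 had a mean of 16.2 CPM over the 6 libraries, against 2.73 CPM for KIF9-AS1 and 7.94 CPM for KIF9. Since the sources used here do not say whether counting was by strand, reads of these genes may be mixed. KIF24, a depolymerase of the mother centriole that restrains cilium formation, had 504, 454 and 362 counts in the knockdown libraries against 557, 584 and 629 in the control libraries. The groups did not overlap, and the log2 fold change was -0.40 (SE 0.0888, edgeR adjusted p = 0.00130). Its exons share 143 bases with UBAP1 on the opposite strand, a gene with a mean of 88.5 CPM over the 6 libraries against 9.35 CPM for KIF24, so reads of both may be mixed here too.

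Of the 8 that were not called, KIF21A, which limits microtubule growth at the cell cortex, was the most abundant, with 11.3, 11.9 and 12.6 RPKM in the knockdown libraries against 13.3, 13.1 and 12.2 RPKM in the control libraries. These overlapped (log2 fold change -0.11, edgeR adjusted p = 0.0683), and the adjusted p was 0.0379 without knockdown replicate 3 and 0.0210 without control replicate 3. KIF7, a ciliary regulator of Hedgehog signalling, had 367, 363 and 322 counts in the knockdown libraries against 298, 346 and 288 in the control libraries (log2 fold change 0.20, edgeR adjusted p = 0.128), and 589 bases of its exons overlap TICRR on the opposite strand. KIF27 (a paralogue of KIF7), KIF26B and KIF12 had log2 fold changes of -0.09, -0.01 and -0.14. KIF6, KIF19 and KIF21B had at most 54 counts in any library and log2 fold changes of -0.34, -1.21 and -0.29. The median of the 10 was -0.11 without knockdown replicate 1 or 2 and -0.14 without control replicate 2.

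Kinesins with other names and the known partners of kinesins were set beside the family. CENPE, a kinesin-7 that carries chromosomes along spindle microtubules to the metaphase plate, had 35.4, 35.5 and 36.8 RPKM in the knockdown libraries against 19.5, 18.1 and 14.8 RPKM in the control libraries. Its log2 fold change of 1.04 (SE 0.0614, edgeR adjusted p = 4.98e-12) was larger than that of any called KIF gene. Of the minus-end-directed kinesin-14 genes, KIFC3 fell by 0.33 on the log2 scale (SE 0.0425, edgeR adjusted p = 1.45e-06) and KIFC2 rose by 0.23 (SE 0.0635, edgeR adjusted p = 0.00766), while the spindle motor KIFC1 was not called at 0.06. KIFC2 was no longer called without knockdown replicate 1 or without control replicate 3, which left CENPE as the only one of the 4 called higher.

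Of 20 partners of mitotic kinesins, CENPE included, 6 rose and 4 fell (10 of 20 called, against 26.7% of all tested genes and 44.0% of those with a mean of at least 20 CPM), with a median log2 fold change of -0.01. CEP55, which recruits the abscission machinery to the midbody, fell by 0.50 (SE 0.0383, edgeR adjusted p = 4.48e-10). AURKB and INCENP, both of the chromosomal passenger complex that KIF20A brings to the central spindle, moved apart, AURKB by -0.32 (SE 0.0429) and INCENP by 0.18 (SE 0.0416), with edgeR adjusted p = 2.68e-06 and 0.00244. AURKA, a spindle pole kinase, fell by 0.23 (SE 0.0464, edgeR adjusted p = 0.000433), and HMMR, a spindle assembly factor, rose by 0.26 (SE 0.0455, edgeR adjusted p = 0.000111).

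Of 18 tested light chains and cargo adaptors of kinesins 4 rose and 2 fell (33.3%, against 26.7% of all tested genes and 44.0% of those with a mean of at least 20 CPM), with a median log2 fold change of 0.05. The adaptors MAPK8IP3 (JIP3) and SPAG9 (JIP4) rose by 0.35 and 0.14 (SE 0.0443 and 0.0400, edgeR adjusted p = 1.17e-06 and 0.00820), and the kinesin-1 light chains KLC4 and KLC3 moved by 0.25 and -0.56 (SE 0.0456 and 0.0773, edgeR adjusted p = 0.000174 and 4.95e-06). KLC3 exons share 535 bases (14.6%) with ERCC2 on the opposite strand, at a mean of 24.1 CPM against 10.5 CPM for KLC3, so reads of both may be mixed. KIF1BP and FYCO1 moved by 0.12 and -0.14 (edgeR adjusted p = 0.0438 and 0.0289). The number of higher calls was 2 without knockdown replicate 3 or control replicate 3, and that of lower calls was 1 without knockdown replicate 1 or 2 or control replicate 3.

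Genes that drive, mark or regulate proliferation and M phase were set beside the mitotic kinesins. The list mixes directions, since RBL1, RBL2 and E2F4 are known as repressors of cell cycle genes in the DREAM complex. Of its 17 genes 35.3% were called, against 26.7% of all tested genes and 44.0% of those with a mean of at least 20 CPM. Of these, 3 rose (log2 fold changes of 0.74 for CENPF, 0.38 for RBL1 and 0.16 for MYBL2) and 3 fell (-0.37 for TOP2A, -0.31 for FOXM1 and -0.18 for CCNB1), with edgeR adjusted p-values of at most 0.0054. Without control replicate 1 the number that fell was 5. MKI67, the usual marker of dividing cells, had 1325 ± 27.0 CPM in knockdown cells and 1288 ± 93.0 CPM in control cells (SD, n = 3 each) and was not called (log2 fold change 0.04, edgeR adjusted p = 0.545). MKI67 was called higher without control replicate 1, at a log2 fold change of 0.10 (edgeR adjusted p = 0.0443). The summed RPKM of the list was 573.0 ± 15.3 in knockdown cells and 548.5 ± 15.0 in control cells, which overlapped. In separate assays of 786-O cells the study reported a larger G0/G1 share and less proliferation after NFE2L3 knockdown. The part of cell cycle phase in the kinesin values was not tested.

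A property that the name rule did not use was the base composition of the transcripts. The GC content of the longest protein-coding transcript of the 7 kinesins that rose had a median of 38.3% (34.3 to 54.9%), and 6 of them were at or under 44.5%, with KIF1C as the exception. In the 7 that fell it was 49.8% (47.7 to 54.6%), and in the 21 that were not called 48.5% (36.0 to 64.1%). Over all genes of known GC content the medians were 47.7% for those higher and 46.1% for those lower. Spearman's rho between GC content and log2 fold change was -0.68 over the 13 mitotic kinesins, -0.34 over the 12 transport kinesins, -0.30 over all 35 and 0.06 over 12943 genes. Over the mitotic kinesins exon length also went with the fold change, with a rho of 0.70, against -0.25 over transport kinesins and -0.01 over all tested genes. For the length of the longest protein-coding transcript, rho was weaker over mitotic kinesins, at 0.52. It was -0.26 over transport kinesins and 0.04 over 12943 genes. These are correlations across genes of the same 6 libraries, which share depth and composition and are not independent replicates. GC content was known for all 39 kinesins but for 65.0% of the tested genes, too few to correct counts of calls over all genes. In a fit on the genes of known GC content alone, the 14 called kinesins kept their call and KIF16B was called as well (log2 fold change 0.14, edgeR adjusted p = 0.0282). The same 15 were called when a smooth GC curve of each library was taken out in that subset, with KIF16B at 0.16 (edgeR adjusted p = 0.00973).

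**Figure D5:**
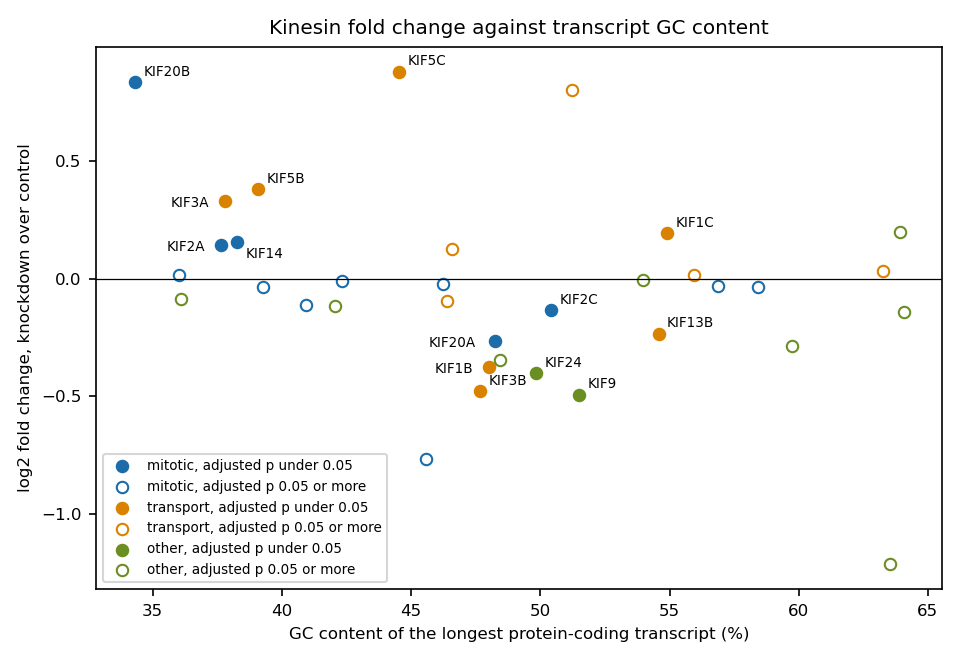
Log2 fold change, knockdown over control, against the GC content in percent of the longest protein-coding transcript, for the 35 tested kinesins coloured by class, with filled points at an edgeR adjusted p under 0.05. The kinesins that rose lie at 34.3 to 54.9% GC and those that fell at 47.7 to 54.6% GC.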

How the data were processed

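RNA-seq of 3 NFE2L3 knockdown and 3 control libraries of 786-O cells was used, and samples were grouped by their titles and source names. Per the submitters' processing notes and the study's methods, the authors used Trimmomatic 0.36 for trimming, merged reads of 1 molecular identifier to a consensus, aligned with STAR 2.5.3a (Ensembl release 87, GRCh38) and assigned reads to exons by featureCounts (Subread 1.5.1). The deposited table holds the resulting raw counts per gene and the exon length. The authors tested with edgeR 3.12.1. Even numbers made up 67.6% to 69.9% of deposited counts from 1 to 29.

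From the counts, TMM-scaled CPM and RPKM and the quasi-likelihood test were computed in edgeR 4.0.16 under R 4.3.3 with limma 3.58.1, and the rest in Python 3.11.15 with SciPy 1.17.1. Genes were kept by filterByExpr (minimum count 10), which left 19916, and p-values were adjusted by Benjamini-Hochberg over all of them. Standard errors were derived from the fold change and the F statistic. An exact permutation test of 3 against 3 libraries cannot go below 0.1. The kinesins, classes and lists were chosen with earlier results of these data known. Called kinesins are given in every library, and of other lists the up to 6 genes with the smallest adjusted p are named, plus CENPE, the KIFC genes, MKI67 and KIFAP3. GC content came from GENCODE v44 transcripts lifted to GRCh37, used for sequence only. Counts were simulated at the depths of these libraries over 19623 genes. Recovery was 38% at a true fold of 1.2, 80% at 1.5 and 90% at 2, and 2.61% of the 153 calls were false. The simulation changed far fewer genes than the 5320 called in the data and gave all genes the same dispersion. Its recovery therefore need not hold for the data. Other settings tried were other library scalings (RLE, upper quartile, none), other tests (DESeq2 1.42.0, limma-voom, edgeR's exact test and its test against a fold of 1.2), other filters, halved counts, length and GC offsets, a replicate block and omission of each library in turn. The GC alternatives were chosen after seeing the data.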

Additional observations from a re-analysis of the deposited data

How the results depend on the processing

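Of the 14 called kinesins, KIF1B, KIF20B, KIF3B, KIF5B, KIF5C and KIF9 kept their direction and their call in all 22 alternatives, and KIF13B, KIF1C, KIF20A, KIF24 and KIF3A in all but the test against a fold of 1.2. KIF14, KIF2A and KIF2C lost the call in 8, 7 and 5 alternatives. The cause was not tested. A kinesin that was not called is not shown to be unchanged. Of simulated 1.2-fold changes 38% were found over abundant and scarce genes together. That simulation changed far fewer genes than were called in the data, so the share missed in the data is not known.

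The test against a fold of 1.2 asks for a larger effect by construction. It left 428 higher and 451 lower over all genes, 3 higher and 3 lower kinesins, 1 higher and 0 lower mitotic kinesins, 2 higher transport kinesins and 1 lower other kinesin. In the lists it left 1 higher and 0 lower kinesins with other names, 1 and 1 partners, 0 and 1 light chains and adaptors, 1 and 2 dynein and dynactin genes and 1 and 0 M phase drivers.

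The number of higher mitotic kinesins was 1 with unscaled library sizes, and that of lower ones was 1 with upper quartile factors, as was that of lower light chains and adaptors. The transport median was 0.0305 with no filter and 0.0256 with KIF21A and KIF21B counted as transport. The median of other kinesins was -0.14 with at least 10 counts in every library or with halved counts. Both settings left 0 kinesins at the 2-fold cutoff, against 2 with no filter. At a fold of 1.5 there were 3 kinesins, against 1008 of all 19916 tested genes. On counts not divided by exon length, the class shares changed by -1.88 (mitotic), 2.86 (transport) and -0.986 (other) percentage points, knockdown minus control. The mitotic minus transport difference was -0.060 with no filter or with at least 10 counts in every library, -0.066 with halved counts and -0.055 with KIF21A and KIF21B counted as transport.

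Deviations of same-numbered libraries from their group means had correlations of -0.0121, -0.0159 and -0.0195, so no shared replicate effect was seen. Whether these libraries were handled as pairs cannot be told from this. With the replicate block 5 kinesins were higher and 7 lower, and the number of higher mitotic kinesins was 1. With GC or length offsets and the replicate block the number of lower mitotic kinesins was 1 (KIF2C lost its call, edgeR adjusted p = 0.0756 and 0.0545), and with GC offsets and the block KIF17 was at -0.0115, KIF23 at 0.0216, KIF26B at 0.0070 and KIF4A at 0.0116.

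Uncalled values near 0 changed sign. KIF17 was at -0.0054 with limma-voom. KIF23 was at 0.0219, KIF26B at 0.0072 and KIF4A at 0.0118 with GC offsets. Over genes of known GC, KIF23 was at 0.0041 and KIF26B at 0.0072, and with upper quartile factors KIF23 was at 0.0097 and KIF26B at 0.0128. Leaving out 1 library each gave -0.082 to 0.0033 for KIF11, -0.16 to 0.25 for KIF17, -0.011 to 0.052 for KIF18A, -0.022 to 0.012 for KIF23, -0.029 to 0.023 for KIF26B, -0.014 to 0.042 for KIF3C and -0.052 to 0.012 for KIF4A.

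The same gave 1 to 3 higher and 1 to 3 lower mitotic kinesins, medians of 0.062 to 0.14 (transport) and -0.19 to -0.11 (other), a mitotic minus transport difference of -0.17 to -0.081, 0 to 2 kinesins at the 2-fold cutoff, 1 to 2 higher kinesins with other names, 2 to 5 higher and 1 to 3 lower light chains and adaptors, and 3 to 5 lower M phase drivers.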

Other observations

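The minus-end-directed motor that works against most kinesins, cytoplasmic dynein with its activator dynactin, was counted as well. Of 23 tested subunits and adaptors 6 rose and 5 fell after NFE2L3 knockdown at an edgeR adjusted p under 0.05 (47.8%, against 26.7% of all tested genes and 44.0% of those with a mean of at least 20 CPM), with a median log2 fold change of 0.01. DYNLT1, a dynein light chain, fell to 82.2 ± 3.43 CPM in knockdown cells, against 139.0 ± 4.17 CPM in control cells (SD, n = 3 each, log2 fold change -0.76, edgeR adjusted p = 2.64e-12). DCTN4, a dynactin subunit, fell to 22.0 ± 0.858 CPM in knockdown cells, against 33.7 ± 1.37 CPM in control cells (log2 fold change -0.61, edgeR adjusted p = 7.04e-09). The cargo adaptor BICD2 reached 94.1 ± 1.50 CPM in knockdown cells, against 63.1 ± 2.25 CPM in control cells (log2 fold change 0.58, edgeR adjusted p = 3.20e-10), and the dynein regulator NDEL1 rose by 0.33 (SE 0.0439, edgeR adjusted p = 3.41e-06). The light chains DYNLL2 and DYNLL1 moved by 0.29 and -0.22 (edgeR adjusted p = 2.38e-05 and 0.000672).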
